A study of Homo sapiens with 6 samples.

Results

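Cohesin is the protein ring that holds sister chromatids together from replication to anaphase and folds interphase chromatin into loops. SMC1A and SMC3 form the arms of the ring, RAD21 closes it, and STAG1 or STAG2 binds to RAD21. NIPBL loads the ring onto DNA, WAPL opens it with the help of the PDS5 proteins, and the protease separase, encoded by ESPL1, cuts RAD21 at anaphase. The ring also gathers at DNA double-strand breaks, where it keeps the intact sister close as a repair template. The 10 genes described here are these ring subunits and regulators: SMC1A, SMC3, RAD21, STAG1, STAG2, NIPBL, WAPL, PDS5A, PDS5B and ESPL1. They were chosen by name but with earlier results of these data known, as were the other lists and the tests. Each of the 10 was represented by the probe set that lists that gene alone, and all 10 were measured, out of 18418 genes on the array.

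The cells were RPMI 8226, an established human multiple myeloma line, and no engineered allele is given. One group received 6 Gy of carbon ions, a densely ionizing particle radiation, and the other received 0 Gy. Total RNA was taken 1 day after irradiation from both, and 3 arrays were made for each group. Nothing states that the 3 samples of a group were separate cultures, so p-values cover only the variation among these arrays, part or all of which may be technical, and a single line stands for myeloma here.

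Values are the deposited intensities, read as log2, and a difference is the irradiated minus the unirradiated mean on that scale. A gene was called changed at a Benjamini-Hochberg adjusted p under 0.05 over all 18418 genes, in a moderated linear model (limma). The number of arrays limits the precision: the median standard error of a difference over all genes was 0.08. Array medians lay between 5.66 and 5.72 on irradiated arrays and between 5.64 and 5.67 on unirradiated arrays. The median difference over all genes was 0.04, against which the values below are to be read.

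The labelled cell type was checked on marker lists, whose called members are named after their values were seen. Of 10 plasma cell markers 8 lay above the median level of all genes, as did 0 of 5 T and NK cell markers, 1 of 4 myeloid markers and 2 of 5 epithelial and fibroblast markers. Among the plasma cell markers CD38 (-0.42) and XBP1 (-0.23) fell and SLAMF7 (0.55) rose, with 7 of 10 not passing. SLAMF7 lay below the median level of all genes, at 5.05 to 5.26 on irradiated and 4.53 to 4.75 on unirradiated arrays. By limma 0 T or NK cell markers were called and 2 had an unadjusted p under 0.05, and all 5 differences were positive (0.05 to 0.31). All 4 myeloid differences were positive too, and ITGAM rose by 0.52. Of the epithelial and fibroblast markers EPCAM fell by 0.39 and COL1A1 rose by 0.23. EPCAM lay above the median level of all genes, at 10.07 to 10.17 on irradiated and 10.34 to 10.63 on unirradiated arrays. The mean of its 2 probe sets gave a difference of -0.28. The mean level of the myeloid list ran from 5.06 to 5.14 on irradiated and from 4.72 to 5.00 on unirradiated arrays. That of the T and NK list ran from 5.36 to 5.55 on irradiated and from 5.16 to 5.37 on unirradiated arrays. The part of these markers in the cohesin differences was not tested. With 1 array left out the calls of COL1A1 (any array, limma adjusted p 0.0576 to 0.113) and XBP1 (any but irradiated replicate 3, 0.0846 to 0.117) ended. So did those of EPCAM (0.0541 and 0.0511 without unirradiated replicates 2 and 3) and CD38 (0.0550 without unirradiated replicate 2), and array medians subtracted ended that of COL1A1 (0.0573). A level also depends on the probes, so its place against the median of all genes is a rough guide. Levels of different genes are set against each other only in the gene pairs below, to compare the change between the groups.

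Of the 10 cohesin genes, chosen with earlier results of these data known, 7 fell after irradiation, 0 rose and 3 did not pass the test. The share of all genes called lower was 8.18%, and the share called higher was 6.35%. With 1 array left out these shares were 4.63% to 7.19% and 3.36% to 4.82%, both smallest without unirradiated replicate 2. The direction in which more genes were called depended on scaling: 1369 were lower and 1431 higher with quantile normalization, and 1909 lower and 977 higher with array medians subtracted. All 10 differences were negative, with a median of -0.33, where 7409 of the 18418 genes tested had a negative difference. The irradiated arrays all lay below the unirradiated arrays for 9 of the 10, against 15.7% of all genes in that direction. All 10 also lay above the median level, and of the 9209 genes that did, 13.7% were called lower. The falls were modest in size, between 0.26 and 0.62 on the log2 scale, which left 65.1% to 83.4% of the unirradiated level. The RNA came from whole cultures, so fewer cells in a given state and less RNA per cell cannot be told apart. With 1 array left out the count of falls was 4 (without irradiated replicate 1 or unirradiated replicate 2) or 5 (without any other).

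**Figure D1:**
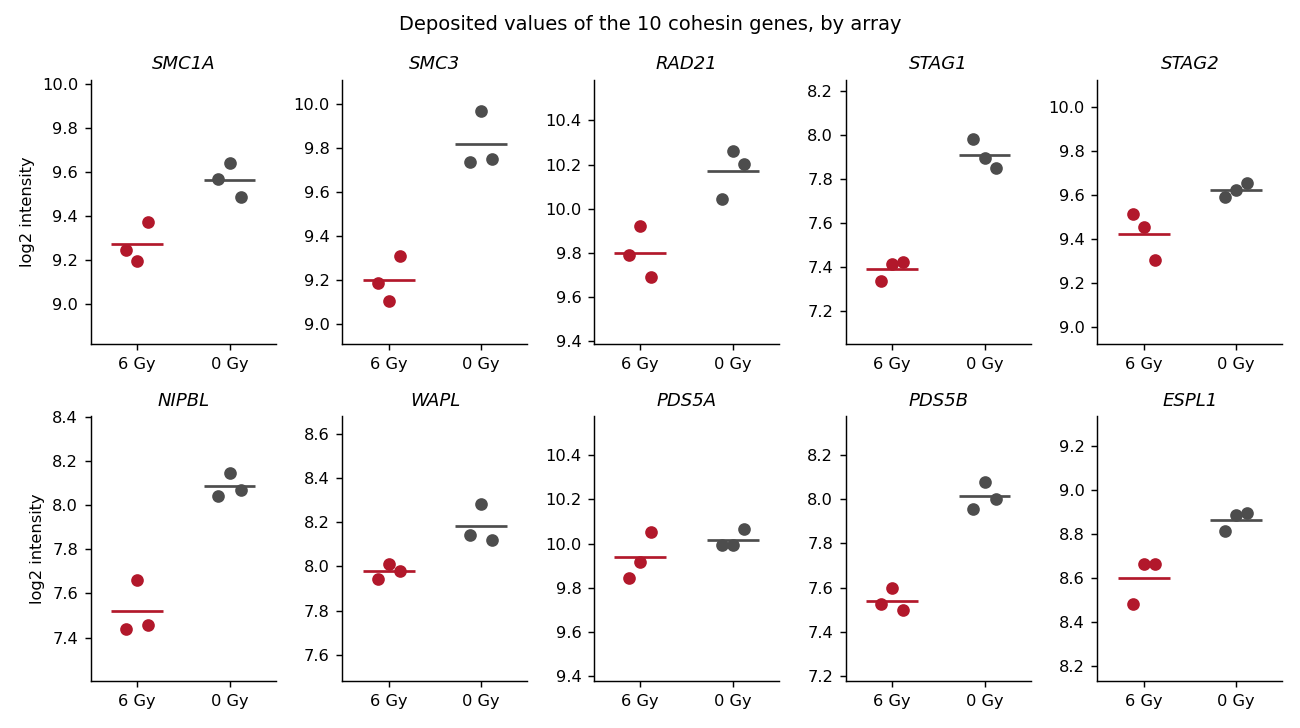
Deposited log2 intensity (vertical axis, each panel spanning the same range) of the 10 cohesin genes on the 3 irradiated (6 Gy, red) and 3 unirradiated (0 Gy, grey) arrays; points are arrays and bars are group means. The groups overlap for PDS5A alone.

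The SMC arms of the ring both fell, SMC3 by more than SMC1A. SMC3 had 9.18, 9.10 and 9.31 on the irradiated arrays, against 9.74, 9.97 and 9.75 on the unirradiated arrays. Every irradiated value was below every unirradiated value, with a gap wider than the range within either group. SMC3 fell by 0.62 ± 0.09 (SE), to 65.1% of the unirradiated level, with a limma adjusted p of 0.00166. This was the largest change of the 10, and 241 genes of the whole table had a more negative difference. SMC1A, which pairs with SMC3 through its hinge, had 9.25, 9.20 and 9.37 on the irradiated arrays, against 9.57, 9.64 and 9.49 on the unirradiated arrays. The groups again did not overlap, but the gap was smaller. SMC1A fell by 0.29 ± 0.08 (SE), to 81.5%, with a limma adjusted p of 0.0295. The SMC1A call ended without irradiated replicate 1 or 2 (adjusted p 0.0794 and 0.0851) and without unirradiated replicate 1 or 2 (0.0863 and 0.111).

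RAD21, the kleisin that bridges the SMC heads and is the substrate of separase, had 9.79, 9.92 and 9.69 on the irradiated arrays, against 10.04, 10.26 and 10.20 on the unirradiated arrays. Its groups did not overlap, and each spread over a similar range. RAD21 fell by 0.37 ± 0.09 (SE), to 77.4%, with a limma adjusted p of 0.0195. That call ended without irradiated replicate 1 or 3 (0.0533 and 0.0529) and without unirradiated replicate 2 or 3 (0.0794 and 0.0625).

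The STAG subunits are alternatives: a ring carries either STAG1 or STAG2, which bind partly different chromatin sites. STAG1 had 7.34, 7.41 and 7.42 on the irradiated arrays, against 7.98, 7.89 and 7.85 on the unirradiated arrays. Both groups were tight and far apart. STAG1 fell by 0.52 ± 0.07 (SE), to 69.9%, with a limma adjusted p of 0.0013. STAG2, which like SMC1A is encoded on the X chromosome, had 9.51, 9.46 and 9.31 on the irradiated arrays, against 9.59, 9.62 and 9.66 on the unirradiated arrays. The groups did not overlap but lay close, and irradiated replicate 3 was the lowest. STAG2 differed by -0.20 ± 0.07 (SE) with a 95% interval from -0.36 to -0.03, which did not pass (limma adjusted p 0.106). With an intensity trend in the variance prior it passed (0.0481).

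The loader gene NIPBL had 7.44, 7.66 and 7.46 on the irradiated arrays, against 8.04, 8.15 and 8.07 on the unirradiated arrays. The irradiated values stayed well below the others, with replicate 2 the highest of them. NIPBL, whose loss of 1 copy causes Cornelia de Lange syndrome, fell by 0.57 ± 0.08 (SE), to 67.4%, with a limma adjusted p of 0.00165.

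Of the 3 genes of ring release, PDS5B fell and the other two did not pass. PDS5B had 7.52, 7.60 and 7.50 on the irradiated arrays, against 7.96, 8.08 and 8.002 on the unirradiated arrays. The 2 groups were each tight and did not overlap. PDS5B fell by 0.47 ± 0.07 (SE), to 72.0%, with a limma adjusted p of 0.00201. PDS5A, its paralog, had 9.85, 9.91 and 10.05 on the irradiated arrays, against 9.99, 9.99 and 10.06 on the unirradiated arrays. This was the one gene of the 10 whose groups overlapped, since irradiated replicate 3 lay among the unirradiated values. PDS5A differed by -0.08 ± 0.07 (SE) with a 95% interval from -0.25 to 0.09 and a limma adjusted p of 0.509, so a fall as large as that of PDS5B lay outside its interval. WAPL, which encodes the release factor itself, had 7.94, 8.01 and 7.98 on the irradiated arrays, against 8.14, 8.28 and 8.12 on the unirradiated arrays. Its groups stood apart by a narrow gap. WAPL differed by -0.20 ± 0.07 (SE) with a 95% interval from -0.36 to -0.05, short of the threshold (limma adjusted p 0.0857). It passed with array medians subtracted (0.0432) and with the dimmest genes left out (0.0495).

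ESPL1, which encodes separase, had 8.48, 8.66 and 8.67 on the irradiated arrays, against 8.81, 8.89 and 8.90 on the unirradiated arrays. Irradiated replicate 1 was the lowest value and the groups did not overlap. ESPL1 fell by 0.26 ± 0.07 (SE), to 83.4%, with a limma adjusted p of 0.0441, the weakest of the 7 calls. It ended without any 1 of the arrays: the adjusted p was 0.131 and 0.0581 without irradiated replicates 1 and 2, just above 0.05 without irradiated replicate 3, and 0.0824, 0.128 and 0.117 without unirradiated replicates 1 to 3. Cell cycle markers gave the following values beside it, to be read against the 6.35% of all genes called higher and the 8.18% called lower. Above the median level, where all these markers lay, 13.7% were called lower. The share called higher was 8.99% in the brightest of 4 equal classes of genes and 8.15% in the next. Of 15 G2 and M phase markers, 3 rose (BUB1 by 0.41, AURKA by 0.32 and CDC20 by 0.24) and 0 fell, with a median of 0.11. Their mean level ran from 9.47 to 9.50 on irradiated arrays and from 9.34 to 9.43 on unirradiated arrays. The AURKA call ended with any 1 array left out except irradiated replicate 3 and unirradiated replicate 3 (adjusted p 0.0584 to 0.0964), and that of CDC20 with any array left out (0.0658 to 0.137) and with array medians subtracted (0.064). Of 15 S phase markers, 2 fell (MCM7 by 0.43 and MCM3 by 0.35) and CCNE2 rose by 0.42, with a median of -0.07. Mean S phase marker levels were 9.37 to 9.46 on irradiated and 9.46 to 9.47 on unirradiated arrays. The part of cell cycle phase in the cohesin differences was not tested.

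**Figure D2:**
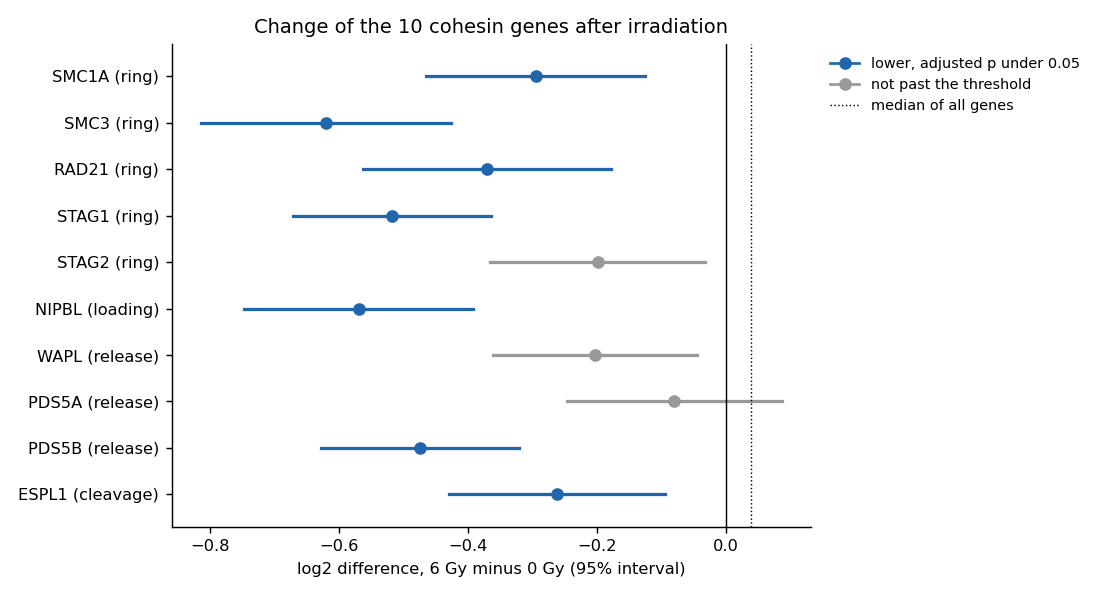
Log2 difference (6 Gy minus 0 Gy, horizontal axis) of each cohesin gene with its 95% limma interval, ordered by role; blue marks the 7 genes called lower and grey the 3 that did not pass. SMC3, NIPBL, STAG1 and PDS5B lie farthest from the median of all genes (dotted line at 0.04).

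SMC3, STAG1, NIPBL and PDS5B were called lower under all 14 alternative settings, with an adjusted p of at most 0.0122. Averaging the probe sets of a gene left their values unchanged, since each has a single probe set. The stricter threshold of 0.01 was put to the main fit. In the plot of adjusted p by setting these 4 genes stand below the threshold throughout, while SMC1A, RAD21, ESPL1, STAG2 and WAPL straddle it.

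**Figure D3:**
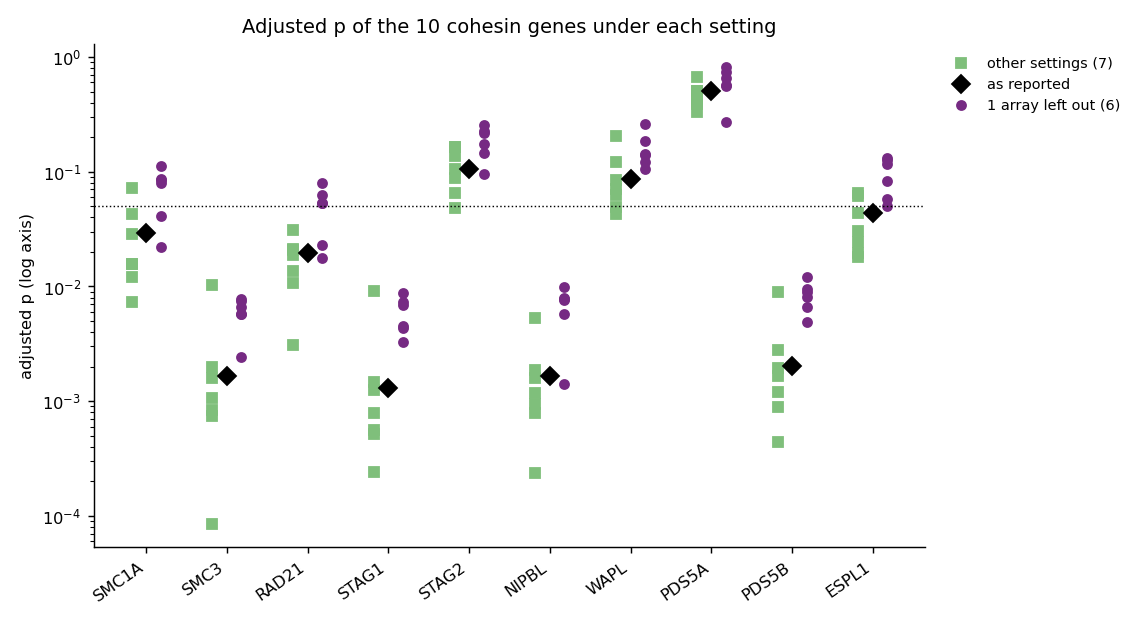
Limma adjusted p (log axis) of each cohesin gene as reported (black diamonds), with 1 array left out (6 purple points) and under the 7 other settings (green squares); the dotted line is the 0.05 threshold. All points of SMC3, STAG1, NIPBL and PDS5B lie below it and all of PDS5A above it.

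Paralogs and functional opposites within the complex were compared by the difference of their log2 values on each array. The pairs were chosen with earlier results of these data known. A pair's value on an array also depends on the probes, so only its change between the groups is read. For the 5 pairs compared, 0.1 is the smallest two-sided p that the exact permutation test can reach with 3 arrays a group, so no pair could pass. PDS5B minus PDS5A was -2.32, -2.32 and -2.55 on the irradiated arrays, against -2.04, -1.91 and -2.06 on the unirradiated arrays. The value was lower on every irradiated array than on any unirradiated array, with a difference of -0.39 (95% interval from -0.58 to -0.20, exact permutation p 0.1, 0.125 adjusted over the 5 pairs). STAG2 minus STAG1 was 2.17, 2.04 and 1.88 on the irradiated arrays, against 1.61, 1.73 and 1.81 on the unirradiated arrays. The groups did not overlap, and STAG2 relative to STAG1 was higher on the irradiated arrays by 0.32 (95% interval 0.12 to 0.52), with the same exact permutation p of 0.1. SMC3 minus SMC1A was -0.06, -0.09 and -0.07 on the irradiated arrays, against 0.17, 0.33 and 0.26 on the unirradiated arrays, a difference of -0.33 (95% interval -0.48 to -0.17, exact p 0.1). WAPL minus NIPBL was 0.51, 0.35 and 0.52 on the irradiated arrays, against 0.10, 0.13 and 0.05 on the unirradiated arrays. WAPL relative to NIPBL was 0.37 higher on the irradiated arrays (95% interval 0.20 to 0.53, exact p 0.1). ESPL1 minus RAD21, the protease against its substrate, differed by 0.11 with overlapping groups (95% interval -0.09 to 0.30, exact p 0.4).

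**Figure D4:**
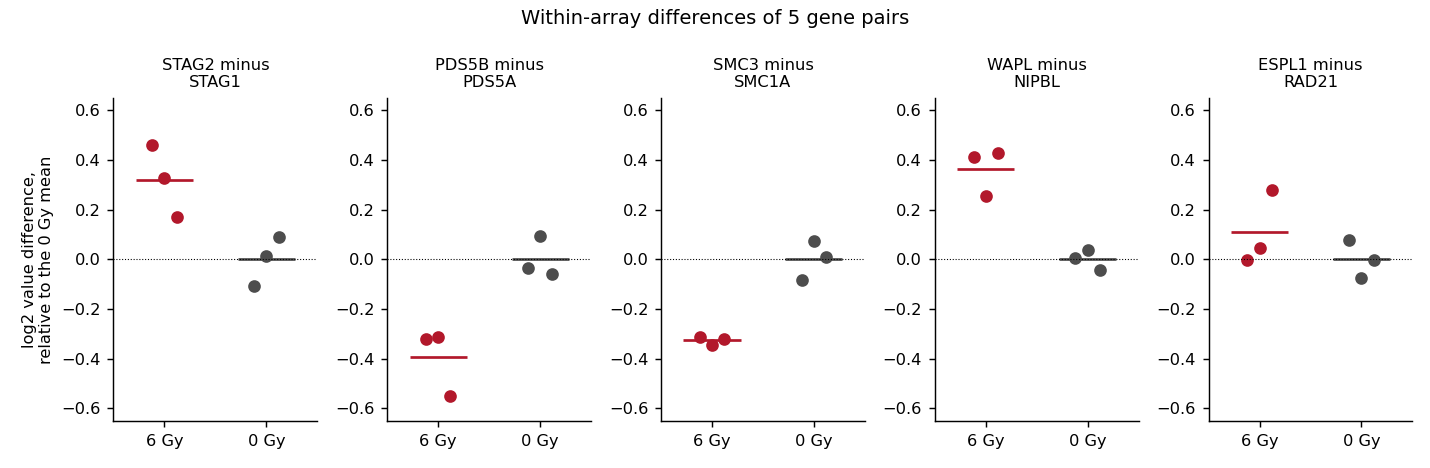
Within-array log2 difference of 5 gene pairs on the 3 irradiated (6 Gy, red) and 3 unirradiated (0 Gy, grey) arrays, set relative to the unirradiated mean of each pair; bars are group means. The groups are apart for 4 pairs and overlap for ESPL1 minus RAD21.

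Promoters are shown for the genes with the largest falls (SMC3 and NIPBL), for the PDS5 paralogs, and for ESPL1. RefSeq promoters of GRCh38.p14 were found for 9 of the 10 genes (12 promoters, some genes having several starts). RAD21 was not matched. Each stretch runs from 160 bases before the annotated start to 30 after it, 5′ to 3′ on the gene's strand, with motif matches on either strand in capitals.
SMC3, chr10:110567535-110567724, plus strand: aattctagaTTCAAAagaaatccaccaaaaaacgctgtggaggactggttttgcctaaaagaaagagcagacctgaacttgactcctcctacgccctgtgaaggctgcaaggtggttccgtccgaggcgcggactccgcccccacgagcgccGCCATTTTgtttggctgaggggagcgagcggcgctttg
NIPBL, chr5:36876609-36876798, plus strand: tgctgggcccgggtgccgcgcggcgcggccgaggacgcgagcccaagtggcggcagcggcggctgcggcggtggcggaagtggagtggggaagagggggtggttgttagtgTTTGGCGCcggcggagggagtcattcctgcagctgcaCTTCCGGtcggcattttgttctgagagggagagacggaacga
PDS5B, chr13:32586292-32586481, plus strand: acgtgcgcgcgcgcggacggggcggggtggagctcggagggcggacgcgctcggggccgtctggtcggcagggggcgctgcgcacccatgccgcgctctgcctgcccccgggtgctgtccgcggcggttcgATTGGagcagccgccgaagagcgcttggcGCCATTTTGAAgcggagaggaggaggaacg
PDS5A, chr4:39977882-39978071, minus strand: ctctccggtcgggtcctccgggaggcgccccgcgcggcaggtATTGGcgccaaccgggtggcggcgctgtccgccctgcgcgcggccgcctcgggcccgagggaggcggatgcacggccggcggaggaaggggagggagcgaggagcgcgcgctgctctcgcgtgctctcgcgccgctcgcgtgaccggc
ESPL1, chr12:53268139-53268328, plus strand: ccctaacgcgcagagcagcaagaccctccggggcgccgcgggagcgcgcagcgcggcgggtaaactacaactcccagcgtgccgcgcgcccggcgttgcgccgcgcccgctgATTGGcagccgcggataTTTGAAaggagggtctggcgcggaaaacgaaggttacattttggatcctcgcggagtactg

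Motifs were searched on both strands of whole 300-base promoters. The cell cycle element CHR (TTTGAA) was found in promoters of ESPL1, PDS5B and SMC3 and in 15.2% of all 35116 promoters. In ESPL1 it stands at -31 from the start with a CCAAT box (CCAAT, here as ATTGG) before it at -48. A CCAAT box was found for 6 of the 9 genes with a promoter (ESPL1, PDS5A, PDS5B, STAG1, STAG2 and WAPL). By promoter it was found in 7 of their 12, beside 34.6% of all promoters. The YY1 motif (AANATGGC, here as GCCATTTT) was found in promoters of SMC3 and PDS5B and in 6.58% of all promoters, and in PDS5B it shares letters with the CHR match. The ETS motif (CCGGAAG) was found for NIPBL and SMC1A and in 10.3% of all promoters. Of the E2F motifs, TTTGGCGC was found for NIPBL and STAG2 (0.65% of all promoters) and TTTCCCGC for SMC1A and STAG1 (1.63%). The NRF1 motif was found in 0 of the 12 promoters and in 1.24% of all. These matches describe letters only. Of the cohesin genes that did not pass, PDS5A and WAPL held the CCAAT box alone of the motifs searched, and STAG2 held TTTGGCGC as well.

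The cohesion partner genes, which load, acetylate, protect or position the ring, split by member. Of 19 listed, 18 were measured (DDX11 had no probe set of its own); 4 fell, 1 rose and 13 did not pass, with a median of -0.06 beside 0.04 for all genes. Of all genes 8.18% were called lower and 6.35% higher, and 13.7% were called lower among genes above the median level, as all 18 were. In the brightest of 4 equal classes of genes 8.99% were called higher, and 8.15% in the next. CTCF, the zinc finger protein that stops sliding cohesin and so anchors loops, had 8.90, 9.02 and 9.01 on the irradiated arrays, against 9.55, 9.59 and 9.49 on the unirradiated arrays. It was lower on every irradiated array and fell by 0.56 ± 0.07 (SE), with a limma adjusted p of 7.88e-04. The acetyltransferase paralogs, which lock the ring shut through SMC3, went opposite ways. ESCO1 had 6.73, 6.82 and 6.79 on the irradiated arrays, against 7.14, 7.29 and 7.37 on the unirradiated arrays. It fell by 0.49 ± 0.08 (SE; limma adjusted p 0.00321). ESCO2, which acts during replication, had 8.74, 8.74 and 8.51 on the irradiated arrays, against 8.35, 8.35 and 8.45 on the unirradiated arrays. ESCO2 rose by 0.28 ± 0.08 (SE), at the edge of the threshold (limma adjusted p 0.0499).

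MAU2, the partner of NIPBL in the loader, fell by 0.35 ± 0.08 (SE; limma adjusted p 0.0209), and TIMELESS, a replication fork protein that aids cohesion, fell by 0.36 ± 0.08 (SE; 0.0138). The other 13 lay between -0.16 and 0.21. Among them, and named after their values were seen, securin (PTTG1), the inhibitor of separase, differed by 0.04 and sororin (CDCA5), the antagonist of WAPL, by 0.15. The ESCO2 call ended without any 1 array except irradiated replicate 3 (adjusted p 0.136 and 0.130 without irradiated replicates 1 and 2, and 0.138, 0.142 and 0.0745 without unirradiated replicates 1 to 3) and with array medians subtracted (0.0934). The MAU2 call ended without irradiated replicates 1 and 2 (0.0554 and 0.0619) and unirradiated replicates 1 and 2 (0.0818 and 0.0658), and that of TIMELESS without unirradiated replicate 2 (0.0525).

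**Figure D5:**
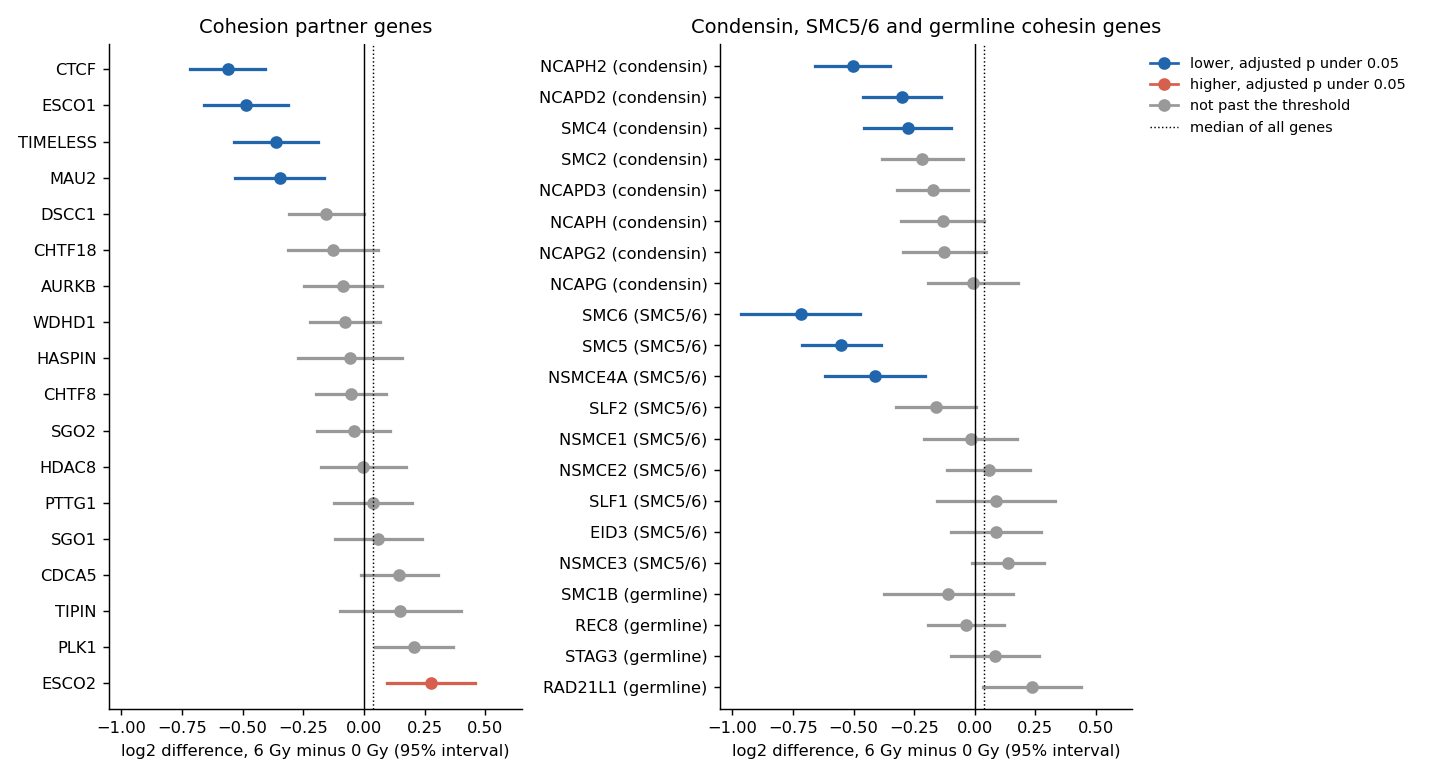
Log2 difference (6 Gy minus 0 Gy, horizontal axes) with its 95% limma interval for 18 cohesion partner genes (left) and for condensin, SMC5/6 and germline cohesin genes (right); blue was called lower, red higher and grey not called. CTCF and ESCO1 lie lowest on the left, and SMC6, SMC5 and NCAPH2 lowest on the right.

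Germline cohesin subunits replace the mitotic ones in meiosis, and no change was called among them. Of 4 measured, 0 were called in either direction by limma, 1 had an unadjusted p under 0.05, and all 4 lay below the median level of all genes. The values of SMC1B lay at 3.25 to 3.72 on irradiated and 3.49 to 3.76 on unirradiated arrays. Those of REC8 lay at 5.39 to 5.50 on irradiated and 5.43 to 5.56 on unirradiated arrays, and those of STAG3 at 4.40 to 4.66 on irradiated and 4.45 to 4.50 on unirradiated arrays, so the groups of all 3 genes overlapped. RAD21L1 lay at 3.17 to 3.32 on irradiated and 2.83 to 3.11 on unirradiated arrays. RAD21L1 differed by 0.24, with an unadjusted limma p of 0.02655 and an adjusted p of 0.113.

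The other SMC complexes, condensin (which compacts mitotic chromosomes) and SMC5/6 (which acts in repair and at stalled forks), were compared as the closest relatives of cohesin. Of 8 condensin genes 3 fell and 0 rose, with a median of -0.20, beside -0.33 for the 10 cohesin genes. The share called lower was 8.18% of all genes and 13.7% of those above the median level, where all 8 condensin and 6 of the 9 SMC5/6 genes lay. NCAPH2, the kleisin of condensin II, fell by 0.50 ± 0.07 (SE; limma adjusted p 0.00145). NCAPD2 fell by 0.30 ± 0.07 (SE; 0.0209) and SMC4 by 0.28 ± 0.08 (SE; 0.0452). Of 9 SMC5/6 genes 3 fell and 0 rose, with a median of -0.02. SMC6 had 8.001, 7.84 and 7.62 on the irradiated arrays, against 8.36, 8.68 and 8.57 on the unirradiated arrays, and fell by 0.72 ± 0.11 (SE; limma adjusted p 0.00271). SMC5 had 7.36, 7.28 and 7.17 on the irradiated arrays, against 7.77, 7.83 and 7.87 on the unirradiated arrays, and fell by 0.55 ± 0.07 (SE; 0.00126). NSMCE4A, the kleisin of that complex, fell by 0.41 ± 0.09 (SE; 0.0166). The 6 SMC5/6 genes not called lay between -0.16 and 0.14. The irradiated arrays thus lay below the unirradiated arrays for the SMC ATPase genes of all 3 complexes (6 of 6), a grouping drawn from these lists with their values known. Of them 5 were called and SMC2 was not (-0.22, limma adjusted p 0.0830). Of all genes 15.7% did not overlap in that direction and 8.18% were called lower. Above the median level, where all 6 lay, 13.7% were called lower. The difference between complexes was not tested.

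The SMC4 call ended with any 1 array left out (adjusted p 0.0549 to 0.136). The NCAPD2 call ended without irradiated replicate 1 (0.0708) and unirradiated replicates 1 and 2 (0.0732 and 0.0765), and that of NSMCE4A without unirradiated replicates 1 and 2 (0.0595 and 0.0578).

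The genes whose values over the 6 arrays ran closest to those of SMC3, by Euclidean distance after centring each gene on its mean, were FNDC3A (distance 0.09), SLTM (0.12), TRIO (0.12), EZH2 (0.14) and ZNF266 (0.14). All 5 were called lower, by 0.56 to 0.63. Closest to PDS5A, the least changed, were MRPS5 (0.04), CLIP4 (0.05), DEF8 (0.05), TSPAN16 (0.06) and FOS (0.06), and none of these 5 was called. With 6 arrays such likeness mostly restates the difference between the groups.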

How the data were processed

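The authors' deposited log2 intensities, 33297 probe sets on each of 6 arrays, were used as given. The logarithm was taken as base 2 because values run from about 2 to 14, and every fold depends on that. How the authors normalized them, with which software and on which genome build, is not given in the sources used. The labels' protocols state Trizol extraction and biotin labelling. By the platform annotation 19461 probe sets name 1 gene, 1753 name several and 12083 name no gene; 19429 of the first kind matched RefSeq by Entrez ID. The brightest probe set of a gene was kept, and each cohesin gene had only 1.

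Groups follow the dose in the labels. All 18418 genes were fitted with limma 3.58.1 (lmFit, eBayes; 4 residual and 5.85 prior degrees of freedom) in R 4.3.3, two-sided, without covariates or a filter on dim genes, with Benjamini-Hochberg adjustment. The fit was tested on simulated data. Python 3.11.15 with numpy 2.4.6, pandas 2.3.3 and, for figures, matplotlib 3.10.9 made the tables. The cohesin genes, the other lists and the tests were chosen with earlier results of these data known. Named genes are the 10 cohesin genes, all 4 germline genes, the called members and 3 smallest p of the partner, condensin and SMC5/6 lists, 3 each of the S and G2/M markers, and the 5 nearest patterns of SMC3 and PDS5A; SMC2, PTTG1, CDCA5 and the cell type markers were named after their values were seen. The 14 alternatives were a replicate block, each array left out, no genes of the dimmest 33.3%, quantile normalization, subtracted array medians, a trend with robust prior, array weights, mean probe sets and an adjusted p under 0.01.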

Additional observations from a re-analysis of the deposited data

How the results depend on the processing

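No cohesin gene changed sign under the 14 alternatives. A replicate block, leaving out the dimmest genes, a trend prior, mean probe sets and the stricter threshold could not change a sign. They leave the difference of each cohesin gene as it was. The count of genes called over the whole table was 2676, 1471 to 2184 with 1 array left out (1584 and 1471 without unirradiated replicates 1 and 2) and 1077 at an adjusted p under 0.01. The cohesin genes called lower numbered 7, 4 or 5 with 1 array left out and 4 at an adjusted p under 0.01, where SMC1A (-0.29), RAD21 (-0.37) and ESPL1 (-0.26) missed the threshold. With 1 array left out SMC1A ran from -0.35 to -0.26, RAD21 from -0.43 to -0.31 and ESPL1 from -0.29 to -0.20. Whether the sample number pairs the arrays is not stated. Same-numbered arrays had deviations correlated at -0.04, 0.10 and -0.11, and differently numbered arrays at -0.11 to 0.15. With 3 arrays a group these correlations cannot decide it. With the number as a replicate block 5 cohesin genes were called, SMC1A (-0.29) and ESPL1 (-0.26) having adjusted p 0.0728 and 0.0619, and 0 partner genes were called higher. Quantile normalization took ESPL1 to -0.22 (0.0656). WAPL passed without the dimmest genes (-0.20, 0.0495) and with array medians subtracted (-0.23, 0.0432), and STAG2 with a trend prior (-0.20, 0.0481). Partner genes called lower were 2 to 4 with 1 array left out and 2 at an adjusted p under 0.01. Those called higher were 0 or 1 with 1 array left out, 2 without the dimmest genes and with a trend prior, and 0 with array medians subtracted and at an adjusted p under 0.01. Condensin genes called lower were 1 or 2 with 1 array left out, and 2 with a replicate block and with array weights. They were 4 without the dimmest genes, 5 with a trend prior and 1 at an adjusted p under 0.01. The cause of these moves was not tested. Small differences crossed 0 with 1 array left out: SMC1B ran from -0.23 to 0.0019 (without irradiated replicate 2), REC8 from -0.0636 to 0.0043 and PTTG1 from -0.005 to 0.0752, crossing for REC8 and PTTG1 without unirradiated replicate 3. The table gives no detection calls, so signal over background is unknown.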

Other observations

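The cohesin genes are long. Their median RefSeq span was 114 kb, against 27.3 kb for 16900 protein-coding genes of the table, and STAG1 spans 416 kb. Over all those genes, span and log2 difference had a Spearman rho of -0.12. Split into 4 equal classes from short to long, genes were called lower in 5.42%, 7.84%, 10.6% and 9.40% of cases. Within the 10 cohesin genes rho was -0.15. The longest, STAG1, PDS5B (192 kb) and NIPBL (190 kb), were 3 of the 4 with the largest falls, beside SMC3 at 38.4 kb. PDS5A (155 kb), STAG2 (142 kb) and WAPL (86.5 kb), also in the longest class, were not called. SMC3, SMC1A (48.6 kb), RAD21 (28.8 kb) and ESPL1, the shortest at 25.3 kb, lay in shorter classes and were called lower. Genes and spans are not independent replicates, and the part of span in the cohesin differences was not tested.

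By level, 6 of the 10 cohesin genes lay in the brightest of 4 equal classes of genes, where 12.6% were called lower and 8.99% higher, and 4 lay in the next class, where 14.7% were called lower and 8.15% higher. In the dimmest class 0.63% were called lower.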
